A study of Mus musculus with 2 samples.

Results

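The PGC-1 coactivators and the regulators of mitochondrial biogenesis were followed as a set of 9 genes: the coactivators Ppargc1a, Ppargc1b and Pprc1, the nuclear factors Esrra, Nrf1 and Gabpa, and the mitochondrial DNA (mtDNA) transcription genes Tfam, Tfb2m and Polrmt. They were taken by name and make up 9 of the 28692 genes counted. All 9 reached at least 50 summed counts in endothelial cells. The study deletes Flcn, the gene of the tumor suppressor folliculin, in the endothelium of newborn mice and follows blood and lymphatic vessels. CD31+ cells of the mesentery were collected with magnetic beads at postnatal day (P) 8 and sequenced as droplet single cells with 3′ tags counted by unique molecular identifier (UMI). There was 1 library per genotype. The library titled as the knockout is called Flcn iΔEC here, after the study's Cdh5-BAC-CreERT2+ Flcn flox/flox mice, in which the Cdh5 promoter drives the inducible Cre in endothelial cells. For the control library the labels give no genotype. Both are C57BL/6, and the same treatment is given for both: 40 µg of 4-hydroxytamoxifen injected under the skin, starting at P2 and ending at P6.5, with P3.5 and P5 between. Per the study's methods each library pooled the cells of several mice, so the spread between animals cannot be seen.

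In control 64639756 UMIs came from 6814 cells, the median cell having 7283. In Flcn iΔEC 60805779 UMIs came from 4459 cells, the median cell having 8587. Of the cell barcodes 6 occurred in both libraries. Cells with at least 2 Cdh5 UMIs were taken as endothelial: 566 control cells with 13956271 UMIs and 892 Flcn iΔEC cells with 27210373 UMIs. Their depth differed, with a median of 16127 UMIs in control and 24415 in Flcn iΔEC endothelial cells. Most cells of the CD31+ selection were therefore not endothelial by this rule. Of 10 pan-endothelial markers 1 is Cdh5, which sets the rule, and the other 9 were higher in these cells than in the others of both libraries. Pecam1, the CD31 gene, was 6.86 times as high in control in CPM, the UMIs of a gene per 1000000 UMIs summed over the cells, and Kdr 133 times. Ptprc, the leukocyte marker, had a UMI in 184 control and 195 Flcn iΔEC endothelial cells. Values below are CPM of UMIs summed over the cells of a type, with exact Poisson intervals for a level, exact conditional intervals for a ratio and Clopper-Pearson intervals for a share of cells, all at 95%. With 1 library per genotype these cover counting error only, there is no test, and "rose" or "fell" means at least 2-fold with at least 50 counts over both libraries. A 3′ tag count does not grow with transcript length, so CPM of different genes are compared without a length correction. Other differences between genes in how well they are counted were not tested.

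Clusters were named from marker lists, leaving all 9 genes out of the clustering. Lymphatic endothelial (LEC-like) cells fell into 4 clusters, each called by a marker that led it within the class: Cldn11 and Gja1, both listed for collecting vessels, Lyve1, listed for lymphatic capillaries, and Madcam1, listed for the lymph node sinus. The Lyve1 and Madcam1 clusters also held at least 3 markers of their list, while the Gja1 cluster matched the capillary list best. They made up 97 control and 340 Flcn iΔEC cells, most of them in the Gja1 cluster (43 and 158) and the Cldn11 cluster (21 and 118). Arterial (AEC-like) cells lay mostly in a Cxcr4 cluster in control (132 of 185) and in an Fbln5 cluster in Flcn iΔEC (110 of 157). Venous (VEC-like), high endothelial venule (HEV-like), capillary and proliferating clusters held the other named endothelial cells. Of the HEV-like cells 47 of 56 in control and 64 of 79 in Flcn iΔEC had a UMI of Ptprc. Its part in the HEV-like values below was not tested. The thresholds for a name were chosen with the clusters in view. Unnamed clusters took 13.3% of the endothelial cells in control and 13.1% in Flcn iΔEC, and 16.1% and 21.1% of the other cells. An unnamed endothelial cluster led by Hbb-bs and H19 held 46 Flcn iΔEC cells and 0 control cells, with 5 of the Ppargc1a counts below.

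PGC-1 proteins do not bind DNA themselves. They dock on transcription factors, among them the estrogen-related receptor of Esrra and NRF1 and GABP, whose targets include nuclear genes of respiration and of mtDNA transcription. Tfam packages mtDNA and opens its promoters, where Polrmt, the mitochondrial RNA polymerase, starts transcription with Tfb2m. Folliculin acts at the lysosome on Rag GTPases and is known to keep the transcription factor Tfe3 out of the nucleus.

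Ppargc1a, the inducible coactivator of brown fat, muscle and liver, rose in Flcn iΔEC endothelial cells. It had 39 counts in control and 1323 in Flcn iΔEC endothelial cells, or 2.79 CPM (1.99–3.82) and 48.6 CPM (46.0–51.3). The ratio was 17.4 (12.7–24.6), log2 4.09, which ranked 28 from the highest of the 12798 genes with at least 50 counts. Of the 9 genes 1 was at least 2-fold higher and 0 were at least 2-fold lower, against 3.66% and 6.24% of all genes tested. Flcn itself was at 10.2 CPM in control against 9.74 CPM in Flcn iΔEC endothelial cells. The deleted exon is not given in the sources used here, so a 3′ tag of Flcn does not check the deletion.

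Ppargc1a (ENSMUSG00000029167) lies on the minus strand of chr5:51454250-51567726 (GRCm38). The 300 bases around its annotated start, 250 before to 50 after, are shown because it is the gene of the set that moved. Capitals mark TCATGTG, an M-box bound by the Tfe3 family, and TGACG, the core of the cyclic AMP response element, each searched on both strands. Both matches are on the opposite strand, at −160 for the M-box and −49 for the core, counted from the start site.
Ppargc1a promoter, chr5:51567676-51567975, minus strand: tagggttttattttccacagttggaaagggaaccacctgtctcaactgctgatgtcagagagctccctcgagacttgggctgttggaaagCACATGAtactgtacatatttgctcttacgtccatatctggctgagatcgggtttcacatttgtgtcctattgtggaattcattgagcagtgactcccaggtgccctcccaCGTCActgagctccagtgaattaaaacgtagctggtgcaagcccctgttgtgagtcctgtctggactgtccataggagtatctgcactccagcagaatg
TCATGTG occurs in 3.77% and TGACG in 20.8% of the 32851 promoter windows of this length, from RefSeq on GRCm38.p6. The E-box CACGTG, also searched, has 0 matches in the Ppargc1a window and occurs in 7.15% of all windows. The windows of Rragd and Gpnmb, reference targets of Tfe3 described further on, hold none of these sequences. A match describes letters, not a bound site, and 3′ tags do not show which start site was used.

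The Ppargc1a counts were unevenly spread over endothelial types in both libraries. LEC-like cells held 66.7% of them in control and 81.6% in Flcn iΔEC, while making up 17.1% and 38.1% of the endothelial cells. The level in LEC-like cells went from 11.5 CPM (26 counts) to 115 CPM (1079 counts), a ratio of 9.99 (6.78–15.4). In the Cldn11 cluster it was already 54.2 CPM (34.7–80.7) in control, more than in any other control type, with no overlap with the next. There it rose to 252 CPM (235–271), 4.65-fold (3.10–7.31). Ppargc1a, though left out of the clustering, is also among the 10 genes that most set this cluster apart. In the Gja1 cluster it went from 2 to 272 counts, 2.30 CPM (0.278–8.29) to 62.9 CPM (55.6–70.8), a ratio of 27.4 (7.51–227). The Lyve1 cluster had 0 counts in its 14 control cells, which allows up to 15.9 CPM, and 29.9 CPM (17.1–48.5) in 21 Flcn iΔEC cells. So within the lymphatic class the order in Flcn iΔEC was Cldn11, then Gja1, then Lyve1, and the Lyve1 and Madcam1 intervals overlapped. The Madcam1 level of 17.7 CPM in Flcn iΔEC rested on 1 cell, which held 92.3% of its 26 counts. Changes inside a cluster rest on the pairing of the libraries by integration. Without it the LEC-like clusters were shared unevenly: a Piezo2 cluster had 1 control and 160 Flcn iΔEC cells, an Ackr4 cluster 53 and 8, and the Cldn11 cluster 13 and 115. The log2 ratio of Ppargc1a over all LEC-like cells was then 3.15, and with integration 3.27.

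Outside the LEC-like class the higher Flcn iΔEC levels lay in dividing cells and in a small unnamed cluster. The name proliferating was given before the lymphatic rule was applied. Any lymphatic cells in the dividing cluster are therefore not counted as LEC-like. Proliferating endothelial cells had 0 Ppargc1a counts in control, allowing up to 1.94 CPM, and 189 in Flcn iΔEC, 65.9 CPM (56.8–76.0), with a lower limit of 33.6 for the ratio. Their Flcn iΔEC interval overlapped that of the Gja1 cluster. These same dividing cells also differed in Prox1, the lymphatic identity factor, at 84.2 CPM in control against 344 CPM in Flcn iΔEC; its part in the Ppargc1a result was not tested. VEC-like cells had 0 counts of Ppargc1a in control, allowing up to 2.47 CPM, and 5 counts, 1.56 CPM (0.507–3.64), in Flcn iΔEC. Their Prox1 level was 48.8 CPM in control against 152 CPM in Flcn iΔEC. HEV-like cells had 0 counts in control, allowing up to 1.18 CPM, and 3 in Flcn iΔEC. AEC-like cells had 3.96 CPM in control against 4.12 CPM in Flcn iΔEC, a ratio of 1.04 (0.446–2.50). The Cxcr4 cluster held 11 of the 11 control counts and 9 of the 15 Flcn iΔEC counts, at 6.71 CPM (3.35–12) in control against 9.91 CPM (4.53–18.8) in Flcn iΔEC. With coarser clusters, which move the Cxcr4 cluster out of the class, the log2 ratio in AEC-like cells was 1.6, on under 50 counts. The small unnamed cluster, led by the B cell genes Ly6d and Mzb1, had 0 counts in 21 control cells and 26 counts, 80.2 CPM (52.4–118), in 11 Flcn iΔEC cells, where 4 cells held them and 1 of these held 13. Ptprc had a UMI in 20 of these control cells and in all 11 Flcn iΔEC cells, and its part in this level was not tested.

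The endothelial ratio of Ppargc1a was also computed with types left out. Without LEC-like cells, but with any lymphatic cells of the proliferating cluster kept, it was 12.3 (7.06–23.4), from 13 to 244 counts. Without LEC-like and proliferating cells it was 2.77 (1.49–5.52), from 13 to 55 counts. Without the small Ly6d and Mzb1 cluster as well, 29 counts were left in Flcn iΔEC and the ratio was 1.43 (0.720–3.00). Without called doublets and cells with Ptprc the log2 ratio was 3.52, and as a mean of per-cell CPM it was 3.62.

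**Figure D1:**
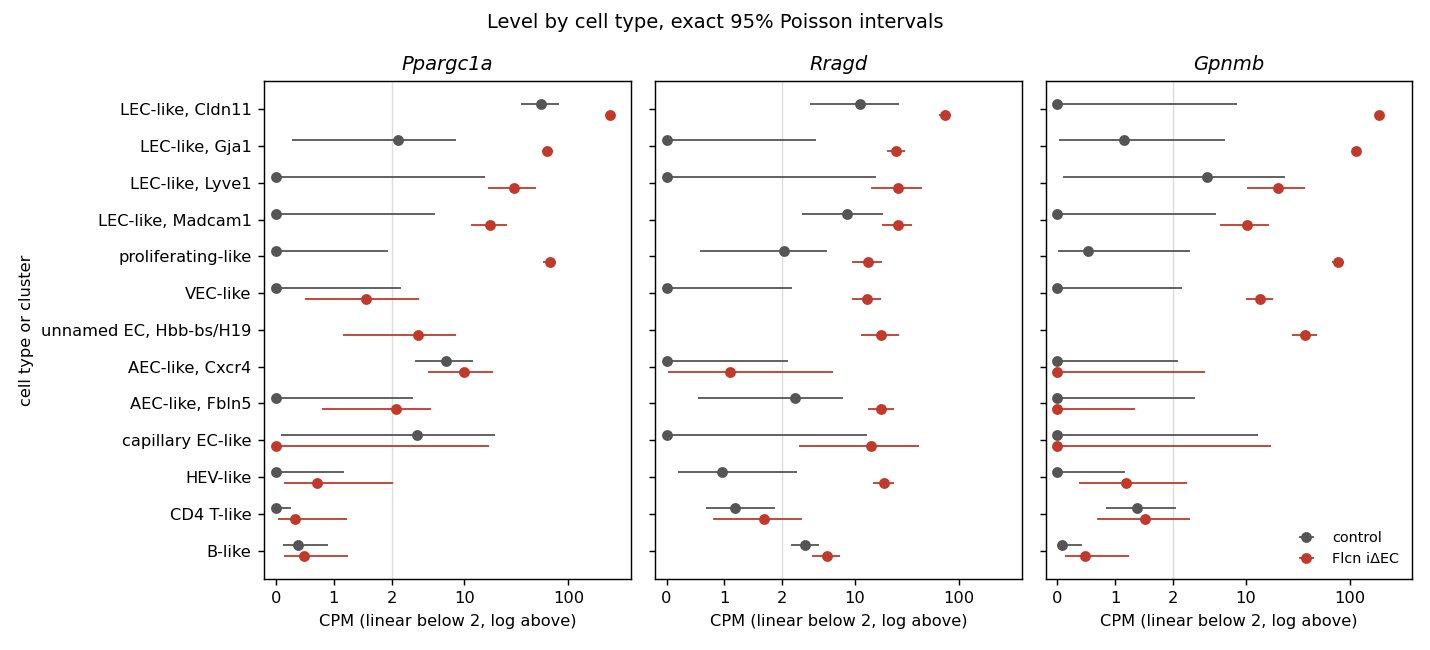
Level of Ppargc1a, Rragd and Gpnmb by cell type in the control (gray) and Flcn iΔEC (red) libraries, in CPM of summed UMIs on an axis that is linear below 2 and logarithmic above. Points are levels and lines exact 95% Poisson intervals. Ppargc1a reached 252 CPM in the Cldn11 cluster of Flcn iΔEC and 1.56 CPM in its VEC-like cells, where Rragd was at 13.1 CPM and Gpnmb at 13.7 CPM.

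The share of cells with a Ppargc1a UMI followed the levels. In control 18 of 566 endothelial cells had one, 3.18% (1.90–4.98), and in Flcn iΔEC 230 of 892, 25.8% (22.9–28.8). Thinned to 2000 UMIs per cell, which left out 6 control and 3 Flcn iΔEC cells, the shares were 0.707% and 7.49%. In the Cldn11 cluster they were 28.6% (11.3–52.2) and 81.4% (73.1–87.9), or 10.7% and 32.4% thinned. CD4 T-like cells, taken as a type without the gene, had a UMI in 0 of 1902 control cells, which allows up to 0.194%, and in 2 of 758 Flcn iΔEC cells, 0.264% (0.0320–0.95). Their median depths were 7274 and 7477 UMIs, and thinned the Flcn iΔEC share was 0.0846%. These shares lie far under those of the LEC-like clusters with the gene. Counts were also clumped: 1 control cell of the Cldn11 cluster held 37.5% of its 24 counts, and the highest Flcn iΔEC cell had 57. A Poisson interval does not cover such spread between cells.

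Among non-endothelial cells Ppargc1a was close to absent. It had 35 counts in control, 0.691 CPM (0.481–0.960), and 44 in Flcn iΔEC, 1.31 CPM (0.952–1.76), a ratio of 1.90 (1.19–3.05). Of these, 25 counts in each library lay in an unnamed cluster led by Fabp1 and Lypd8, genes of intestinal epithelium, at 12.7 CPM (8.24–18.8) in control against 6.05 CPM (3.91–8.93) in Flcn iΔEC, where it fell past 2-fold, 0.475 (0.262–0.862). Without that cluster the log2 ratio in non-endothelial cells was 1.59, on under 50 counts. Regulatory T, macrophage, fibroblast and erythroid clusters had 0 counts in both libraries. A cluster of few UMIs led by the lymphatic and endothelial genes Ccl21a and Cldn5 had 4 of the Flcn iΔEC counts, and without it the level was 1.20 CPM (0.860–1.64).

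Ppargc1b, the second coactivator, behaved otherwise. In endothelial cells it was at 3.94 CPM (2.97–5.13) in control against 4.19 CPM (3.46–5.03) in Flcn iΔEC, a ratio of 1.06 (0.764–1.49). In Flcn iΔEC it was low in the Cldn11 cluster, where Ppargc1a was highest, with 3 counts, 0.989 CPM (0.204–2.89). Control had 0 counts there, which allows up to 8.33 CPM. VEC-like cells had 1 count in control and 15 in Flcn iΔEC, a ratio of 7.00 (1.08–295) under the count minimum. Higher levels lay in some of the lymphocyte types and in the Fabp1 cluster. A cluster of few UMIs led by mt-Nd6 and mt-Nd2 had the highest control level, 24.6 CPM (11.8–45.3) from 10 counts, and overlapped the next. CD8 T-like cells had 15.2 CPM (11.8–19.2) in control against 18.7 CPM (13.8–24.7) in Flcn iΔEC, and CD4 T-like cells 14.9 CPM and 16.8 CPM. B-like cells went the other way, 0.727 (0.537–0.976). The type past 2-fold was an unnamed cluster led by S100a6 and Zbtb32, which fell from 63 to 20 counts, or 13.1 CPM (10.0–16.7) to 5.89 CPM (3.60–9.09). The Fabp1 cluster reached 24.7 CPM in Flcn iΔEC, whereas type 3 innate lymphoid (ILC3/LTi-like) cells stood at 0.402 CPM in control against 2.06 CPM in Flcn iΔEC. A gap between lymphoid types was thus seen in both libraries.

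Pprc1, the serum-induced relative of the PGC-1 pair, was at 12.3 CPM (10.6–14.3) in control against 9.19 CPM (8.08–10.4) in Flcn iΔEC endothelial cells. Its ratio of 0.746 (0.611–0.911) was under the 2-fold limit, and the same ratio in non-endothelial cells was 0.742 (0.650–0.844). HEV-like cells, with 11.2 CPM in control against 15.4 CPM in Flcn iΔEC, went the other way with an interval that holds 1, 1.38 (0.899–2.14). B-like cells were near the top in both libraries, at 19.9 CPM (17.6–22.5) and 14.8 CPM (12.3–17.6). The ratio in CD8 T-like cells, 0.426 (0.225–0.757) from 62 and 15 counts, fell past 2-fold; neither compartment as a whole did.

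**Figure D2:**
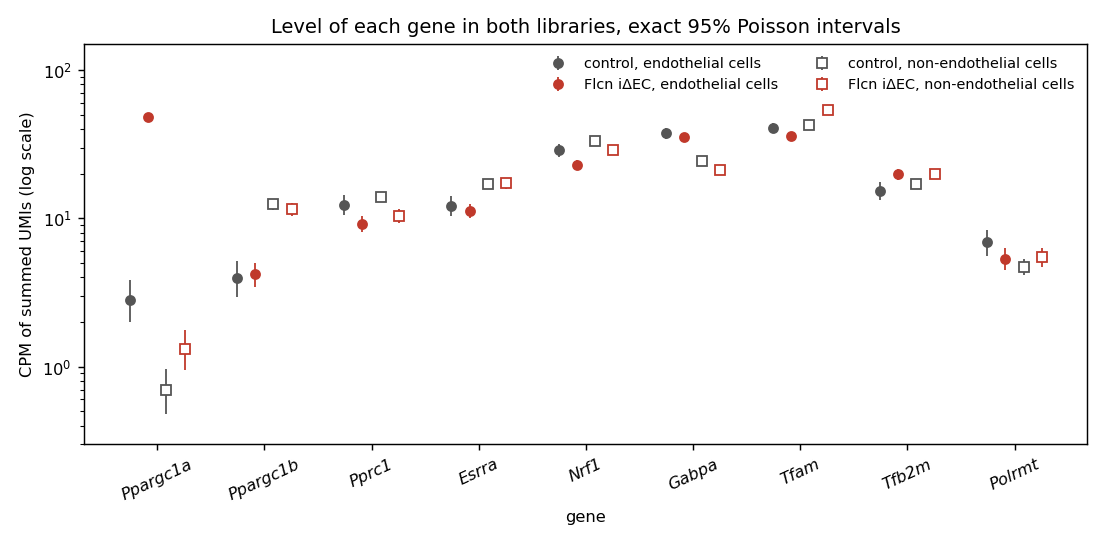
Level of each of the 9 genes in endothelial cells (filled circles) and non-endothelial cells (open squares) of the control (gray) and Flcn iΔEC (red) libraries, in CPM of summed UMIs on a logarithmic axis, with exact 95% Poisson intervals. Ppargc1a stands at 2.79 CPM in control against 48.6 CPM in Flcn iΔEC endothelial cells. Of the other 8 genes Ppargc1b has the widest spread as a ratio of highest to lowest level, from 3.94 CPM to 12.4 CPM.

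The nuclear factors were expressed at similar levels in both libraries. Esrra, the estrogen-related receptor alpha and a partner of PGC-1, had 12.2 CPM (10.4–14.2) in control against 11.2 CPM (10.0–12.6) in Flcn iΔEC endothelial cells, a ratio of 0.923 (0.763–1.12). Without doublets and cells with Ptprc its log2 ratio was −0.40 instead of −0.12. LEC-like cells had 17.7 CPM and 12.1 CPM, a ratio of 0.680 (0.470–1.0), beside the higher Ppargc1a in the same cells. By type Esrra was highest in the Fabp1 cluster, 91.2 CPM (78.3–106) in control against 53.5 CPM (46.6–61.0) in Flcn iΔEC. In control the Lyve1 cluster was next, at 43.0 CPM (20.6–79.1) from 10 counts, and overlapped it. Macrophage-like cells followed in Flcn iΔEC at 31.6 CPM (15.8–56.6), an interval that overlaps the top.

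Nrf1, a factor of respiratory chain genes, was at 28.9 CPM (26.1–31.8) in control against 23.0 CPM (21.3–24.9) in Flcn iΔEC endothelial cells, a ratio of 0.798 (0.703–0.907). The ratio in non-endothelial cells was 0.877 (0.810–0.95). Proliferating lymphocytes were among the highest types, with 41.2 CPM (34.2–49.3) in control against 44.8 CPM (37.3–53.4) in Flcn iΔEC. Treg-like, ILC3/LTi-like and proliferating endothelial cells overlapped them in Flcn iΔEC. Erythroid cells had 1 count in each library.

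Gabpa, the DNA-binding subunit of GABP, was at 37.6 CPM (34.5–41.0) and 35.6 CPM (33.4–37.9), a ratio of 0.946 (0.85–1.05). Its highest control levels were in endothelial types: 52.0 CPM (32.9–78.0) in the Cldn11 cluster, 48.8 CPM (38.7–60.7) in the Cxcr4 cluster and 46.8 CPM (36.5–59.1) in VEC-like cells, with overlapping intervals, and 51.6 CPM in the 14 cells of the Lyve1 cluster. In Flcn iΔEC the highest level was that of a non-endothelial type, fibroblast cells, at 48.9 CPM (31.4–72.8) from 24 counts. That interval overlapped the next, the unnamed cluster of cells with Cdh5 led by Ifng and Ccl5, at 43.2 CPM (34.0–54.1). Of the 54 Flcn iΔEC cells of that cluster 46 had a UMI of Ptprc, whose part in this value was not tested. CD4 T-like cells lay lower, at 24.2 CPM (21.7–26.9) in control against 17.9 CPM (14.7–21.7) in Flcn iΔEC. Proliferating lymphocytes of control, at 34.7 CPM (28.2–42.1), overlapped the Cxcr4 and VEC-like intervals, and the endothelial Fbln5 cluster stood at 23.7 CPM (15.6–34.5). AEC-like cells had the lowest class ratio, 0.656 (0.491–0.875), where the Cxcr4 and Fbln5 clusters stood at 0.609 (0.378–0.953) and 1.0 (0.631–1.63). Gabpa and Esrra overlap Atp5j and Trmt112, and Pprc1 overlaps Ldb1, on the opposite strand only.

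**Figure D3:**
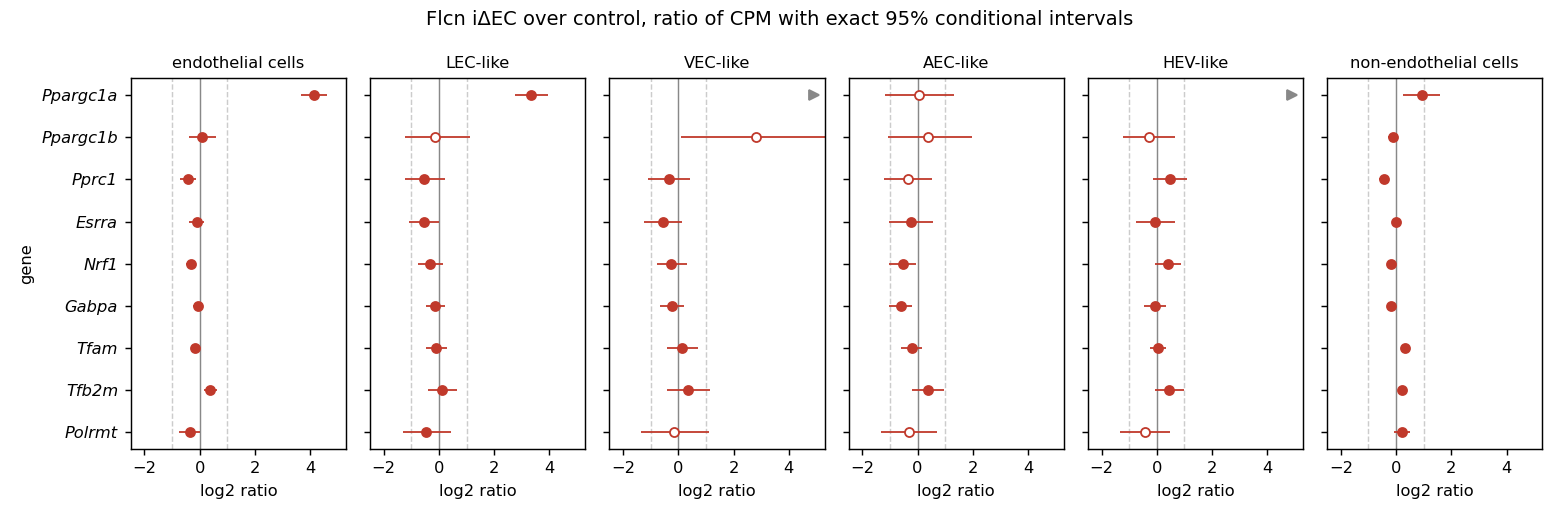
Log2 ratio of Flcn iΔEC over control for the 9 genes in endothelial cells, in 4 endothelial classes and in non-endothelial cells, with exact 95% conditional intervals. Open circles have under 50 counts over both libraries, gray triangles mark 0 control counts, and dashed lines mark 2-fold. Ppargc1a is past 2-fold in endothelial and LEC-like cells.

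The mtDNA transcription genes stayed within 2-fold in both compartments. Tfam was at 40.7 CPM (37.4–44.2) in control against 36.1 CPM (33.9–38.5) in Flcn iΔEC endothelial cells, a ratio of 0.888 (0.80–0.986). In non-endothelial cells it went from 42.6 CPM (40.8–44.4) to 53.7 CPM (51.2–56.2), a ratio of 1.26 (1.18–1.34). The intervals of these ratios lie on opposite sides of 1. Without doublets and cells with Ptprc the endothelial ratio was 0.967 (0.831–1.13), an interval that holds 1, and without the Fabp1 cluster the non-endothelial one was 1.14 (1.06–1.22). In the Fabp1 cluster, which held 37 control and 70 Flcn iΔEC cells, Tfam was 59.6 CPM (49.3–71.4) and 97.2 CPM (88.0–107), the highest Flcn iΔEC level with no overlap with the next. Dividing lymphocytes had 60.6 CPM and 63.1 CPM, and erythroid cells 0 counts in both libraries, which allow up to 8.02 CPM in control against 5.10 CPM in Flcn iΔEC. Within LEC-like cells Tfam was 35.5 CPM and 33.1 CPM, a ratio of 0.933 (0.727–1.21), beside the 9.99-fold of Ppargc1a.

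Tfb2m, the promoter-melting factor, was at 15.3 CPM (13.3–17.5) and 19.9 CPM (18.2–21.6) in endothelial cells, a ratio of 1.30 (1.10–1.53). Its ratio in non-endothelial cells was 1.16 (1.05–1.28). Neither passed 2-fold. The non-endothelial log2 ratio, 0.21, was 0.10 without the Fabp1 cluster and 0.04 as a mean of per-cell CPM. LEC-, VEC-, AEC- and HEV-like classes ranged from 1.09 (0.764–1.58) in LEC-like to 1.36 (0.951–1.97) in HEV-like cells. An unnamed endothelial cluster led by Ifng and Ccl5 passed 2-fold, from 16 to 45 counts, a ratio of 2.36 (1.31–4.47). Of its cells 36 of 40 in control and 46 of 54 in Flcn iΔEC had a UMI of Ptprc, whose part in this value was not tested. In the Fabp1 cluster Tfb2m rose from 12.2 CPM (7.83–18.2) to 29.0 CPM (24.1–34.7), 2.37-fold (1.52–3.85). Polrmt was the lowest of the trio in CPM, at 6.88 CPM (5.57–8.40) in control against 5.33 CPM (4.50–6.27) in Flcn iΔEC endothelial cells, a ratio of 0.775 (0.594–1.01). Non-endothelial cells had 4.70 CPM and 5.48 CPM, a ratio of 1.17 (0.957–1.42). With so few counts, the interval of each type overlapped that of the next in the order of levels in both libraries.

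Promoters of 8 of the 9 genes were found in the RefSeq table, Ppargc1b being the one without. The cores CGCATGC of NRF1 and CCGGAAG of ETS factors such as GABP were searched on both strands, and occur in 3.58% and 8.86% of all windows. Tfb2m and Tfam are shown because they are the textbook targets of these factors, the former holding the NRF1 core and the latter the ETS core. Capitals mark the matches, which in Tfb2m are an overlapping pair on both strands.
Tfb2m promoter, chr1:179546227-179546526, minus strand: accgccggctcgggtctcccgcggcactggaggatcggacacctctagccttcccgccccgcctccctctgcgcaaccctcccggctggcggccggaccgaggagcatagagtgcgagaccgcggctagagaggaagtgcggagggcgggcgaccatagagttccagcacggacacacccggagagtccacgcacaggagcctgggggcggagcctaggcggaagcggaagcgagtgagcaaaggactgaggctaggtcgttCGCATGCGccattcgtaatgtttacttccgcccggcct
Tfam promoter, chr10:71237995-71238294, minus strand: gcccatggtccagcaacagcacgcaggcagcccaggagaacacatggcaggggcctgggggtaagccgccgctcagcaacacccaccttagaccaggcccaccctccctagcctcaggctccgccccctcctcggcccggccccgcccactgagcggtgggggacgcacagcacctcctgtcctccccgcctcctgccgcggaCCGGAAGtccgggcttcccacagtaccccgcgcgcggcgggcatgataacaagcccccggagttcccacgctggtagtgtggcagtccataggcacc
The NRF1 core also occurs in the windows of Polrmt, Gabpa and Esrra, and the ETS core in those of Polrmt and Gabpa. Neither is in the windows of Ppargc1a, Pprc1 or Nrf1, the last with a pair of windows, and AAGGTCA, a site of estrogen-related receptors, is in none of the 8 genes' windows against 4.72% of all.

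Endothelial and non-endothelial cells of the same library were also compared. Ppargc1a was 4.05 times (2.50–6.58) as high in endothelial cells of control and 37.1 times (27.5–51.3) in those of Flcn iΔEC. Gabpa was higher in endothelial cells of both libraries, 1.56 times (1.40–1.72) and 1.69 times (1.53–1.86). Ppargc1b was lower in both, at 0.318 (0.237–0.419) and 0.364 (0.293–0.449) of the non-endothelial level, as was Esrra at 0.712 (0.601–0.840) and 0.651 (0.565–0.749). Nrf1 lay slightly under 1 in both libraries. Tfam was at 0.956 (0.870–1.05) in control and 0.673 (0.622–0.728) in Flcn iΔEC, and Polrmt at 1.46 (1.14–1.86) and 0.973 (0.777–1.22). For Pprc1 and Tfb2m all 4 intervals held 1.

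Counts past 2-fold were set beside those of all genes in each class. In LEC-like cells 1 of the 8 genes tested was higher and 0 were lower, against 3.4% and 7.59% of 10284 genes. In VEC-like cells 0 of 6 were higher or lower, against 3.34% and 4.53% of 8169. In non-endothelial cells 0 of 9 were higher or lower, against 6.85% and 1.86% of 13733. The median log2 ratio of the 9 genes in endothelial cells was −0.12, and that of all genes tested −0.13.

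Genes up- and downstream of PGC-1 were counted past 2-fold in endothelial cells, where 3.66% of all genes tested were higher and 6.24% lower. At the size of these lists, counts of 0 or 1 are near those shares and say nothing particular to a list. Of 25 inputs to PGC-1 such as AMPK and sirtuins, 0 were higher and 1 lower: Camk4, a calcium-dependent kinase, at 74.7 CPM in control against 34.7 CPM in Flcn iΔEC (log2 −1.11). In the same cells the 7 CD4 T markers summed to 193 CPM in control against 90.0 CPM in Flcn iΔEC, and in LEC-like cells to 131 CPM and 34.4 CPM; their part in the Camk4 values was not tested. The median of the inputs was −0.26 and their most abundant gene Mef2c, 263 CPM and 144 CPM. Of 11 tested nuclear receptor partners 0 passed either way, with a median of −0.24 and Thra the most abundant at 112 CPM and 96.1 CPM. Of 20 other genes of mtDNA transcription and replication 0 were higher and 1 lower, Tfb1m, an rRNA methyltransferase, from 37 to 28 counts (log2 −1.35); the median was −0.03 and Slirp led at 69.9 CPM and 79.5 CPM. Camk4 was also past 2-fold in LEC-like and VEC-like cells, whereas Tfb1m had too few counts there to be tested.

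The lists further down had 1 gene past 2-fold, Angpt2, and are read the same way. Of the 13 mtDNA-encoded genes 0 passed in either direction, with a median of 0.08 and mt-Atp6 the most abundant at 6835 CPM in control against 7345 CPM in Flcn iΔEC. All 13 together were 3.51% of endothelial UMIs in control and 3.58% in Flcn iΔEC, 4.05% and 4.04% in LEC-like cells, and 4.44% and 4.24% in the Cldn11 cluster. Of 22 targets in oxidative phosphorylation and the citric acid cycle 0 passed, with a median of 0.07 and Cox4i1 leading at 920 CPM and 1070 CPM. Of 21 import and translation genes 0 passed, with a median of 0.03 and Tomm20 leading at 281 CPM and 351 CPM. Of 20 tested targets in fat oxidation, redox and angiogenesis 1 was higher and 0 lower: Angpt2, the Tie2 ligand, 24.1 CPM and 111 CPM (log2 2.20). Its level in LEC-like cells was 57.2 CPM and 242 CPM, 4.22-fold (3.54–5.08). The median of that list was 0.04 and Gpx1 led it at 327 CPM and 388 CPM.

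The reference list of Tfe3 targets had the highest median log2 ratio of the lists in endothelial cells, 0.95. It was chosen with earlier results of these data known, so it is a description and not independent support. Of its 16 genes 7 were higher and 0 lower in endothelial cells, against 3.66% and 6.24% of all genes tested. Gpnmb, a lysosomal glycoprotein, went from 4 to 1438 counts (log2 7.21), and Rragd, a Rag GTPase, from 22 to 642 counts (log2 3.84). Ctsd, the most abundant, stood at 246 CPM and 700 CPM, a ratio of 2.84 (2.74–2.95). At the lower end were Uvrag (log2 −0.30) and Flcn (log2 −0.08), and Tfe3 itself had 26.2 CPM and 23.0 CPM. In LEC-like cells 9 of 16 were higher, against 3.4% of all genes, and in VEC-like cells 7 of 13, against 3.34%. In non-endothelial cells 1 of 16, Wipi1, was higher, near the 6.85% of all genes. In each of these 0 were lower, against 7.59%, 4.53% and 1.86% of all genes.

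In LEC-like and VEC-like cells each other list had 0 to 2 genes past 2-fold in a direction, which at their size says nothing particular to a list. In LEC-like cells, where 3.4% of all genes were higher and 7.59% lower, Camk4 and Mgme1 were lower and Angpt2 higher, and 0 of the 13 mtDNA-encoded, 22 respiratory and 20 import genes passed, with medians of −0.02, 0.03 and 0.05 against −0.21 for all genes. In VEC-like cells, with shares of 3.34% and 4.53%, Camk4, Tfeb and Ucp2 were lower and Mfn1 and Angpt2 higher, and the same lists again had 0 genes past it, with medians of 0.27, 0.15 and 0.18 against −0.08. In non-endothelial cells, with 6.85% and 1.86%, 5 genes of these lists were higher, all low in control: Prkaa2, Ppara, Pparg, Thrb and Pdk4. Pdk4 was at 0.552 CPM in control against 3.78 CPM in Flcn iΔEC. Of the 13 nuclear receptor partners tested there, 3 were higher. The Fabp1 cluster held 1962789 of the 50683485 non-endothelial UMIs in control and 4134323 of 33595406 in Flcn iΔEC. Its part in these values was not tested.

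**Figure D4:**
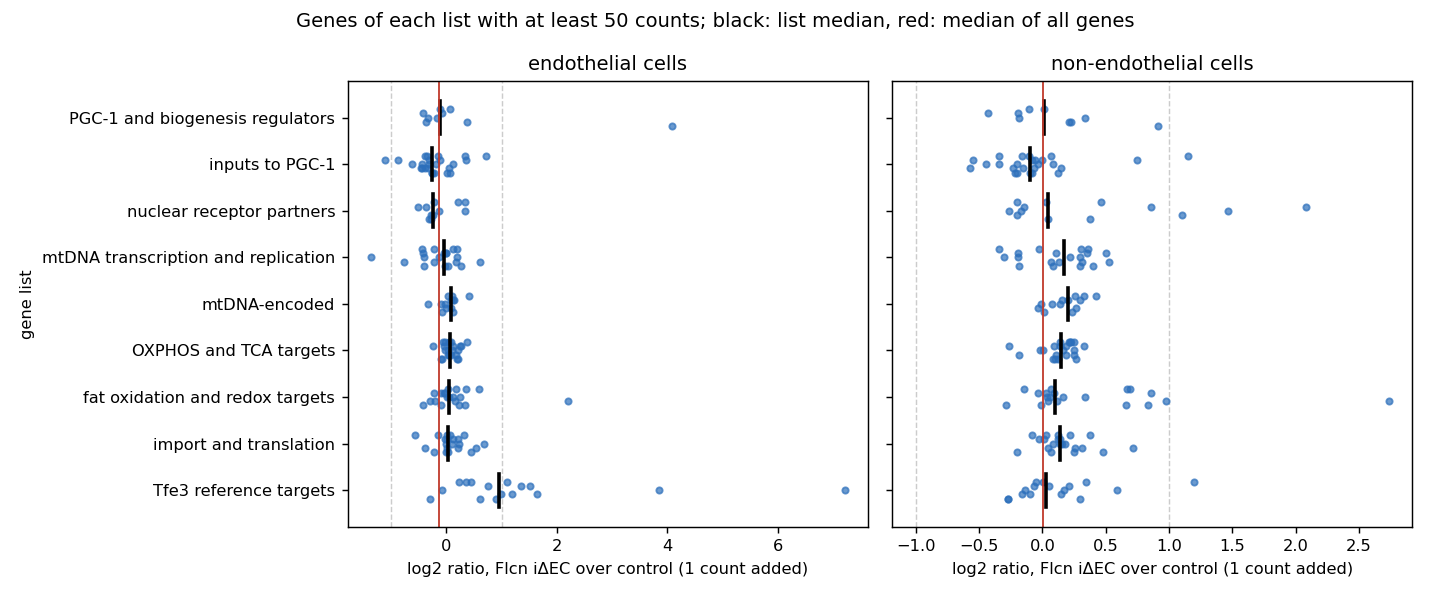
Log2 ratio of Flcn iΔEC over control, with 1 count added, for every gene of each list with at least 50 counts, in endothelial (left) and non-endothelial cells (right). Black bars are list medians, the red line is the median of all genes tested and dashed lines mark 2-fold. The Tfe3 reference targets have a median of 0.95 in endothelial and 0.03 in non-endothelial cells, and the point at 4.09 in the top list is Ppargc1a.

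Across endothelial types Gpnmb shared the lymphatic weight of Ppargc1a, and Rragd was spread more widely. Rragd was higher in Flcn iΔEC in lymphatic and blood types alike: from 4.88 CPM to 41.0 CPM in LEC-like cells, from 0.957 CPM to 18.9 CPM in HEV-like cells and from 0 to 42 counts, 13.1 CPM, in VEC-like cells, with a lower limit of 5.09 for the ratio. Gpnmb had 1097 of its 1438 Flcn iΔEC endothelial counts in LEC-like cells, where it went from 0.887 CPM to 117 CPM, and 222 in proliferating cells, where it went from 0.526 CPM to 77.4 CPM. It also went from 0 to 44 counts, 13.7 CPM, in VEC-like cells, and had 0 counts in AEC-like cells of both libraries. Of the 1323 Ppargc1a counts 1079 and 189 were in the same LEC-like and proliferating cells, but 5 in VEC-like and 3 in HEV-like cells. Whether these patterns differ beyond the spread between animals was not tested.

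Likeness over the 51 groups of cell type and library was computed for genes with at least 10 counts in the majority of groups, of which there were 8491. Tfam was most like Phb2 (Pearson r of log2(CPM + 1) = 0.966), Hspa8 and Rpl7a, and Nrf1 most like Sfpq (r = 0.916), Hnrnpa2b1 and Bclaf1. Gabpa was most like Psmd3 (r = 0.907), Cops8 and Cops2, and Tfb2m most like Mettl5 (r = 0.863), 3010003L21Rik and Gtf3c3. Esrra was most like Sipa1l3 (r = 0.792), Slc25a22 and Flcn (r = 0.777), and Pprc1 most like Endov (r = 0.773), Smg5 and C1galt1. Ppargc1a, with 10 counts in 9 groups, Ppargc1b in 22 and Polrmt in 24 had too few. The groups share 2 libraries and differ in depth, so the values are descriptions. Groups near 0 can weigh heavily on r, such as erythroid cells with 0 Tfam counts in both libraries. Likeness without such groups was not tested.

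The libraries also differed in other ways. The control library had 9 Xist and 15535 Y-linked UMIs and the Flcn iΔEC library 63462 and 17, so sex and genotype cannot be told apart. Among genes with at least 100 CPM the highest ratios in endothelial cells were those of Xist (log2 11.09) and Lrrn4cl (6.78), and the lowest those of Ddx3y (−11.44) and Spink4 (−8.28). The 8 erythroid markers summed to 77.7 CPM in control against 664 CPM in Flcn iΔEC endothelial cells, with Hbb-bs the most abundant in Flcn iΔEC, and to 53.2 CPM and 61.3 CPM in LEC-like cells, with Slc4a1 at 0 in both. T cell, B cell and fibroblast markers were lower in Flcn iΔEC endothelial cells, at 90.0 CPM, 250 CPM and 130 CPM summed, than in control, at 193 CPM, 460 CPM and 209 CPM. Of these, the CD4 T markers alone were lower in LEC-like cells, 131 CPM in control against 34.4 CPM in Flcn iΔEC, while B cell markers were at 195 CPM and 244 CPM, of which Ebf1 alone made up 145 CPM and 199 CPM, and fibroblast markers at 22.2 CPM and 32.6 CPM. In the Cldn11 cluster the 7 CD4 T markers summed to 13.6 CPM and 19.5 CPM, with Cd3e, Cd3g and Cd4 at 0 in control. The part of these markers in the endothelial values was not tested.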

How the data were processed

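The deposited files hold UMI counts per gene and cell, which the authors made with Cell Ranger 3.0 on mm10 per the labels; the counts were used as deposited, and no table of the authors' own cell types was used. The 9 genes and the gene lists were chosen with earlier results of these data known. Endothelial cells (at least 2 Cdh5 UMIs) and the others were clustered apart with Seurat 5.3.0 (R 4.3.3): anchor integration of both libraries, 2000 variable features less the 164 genes of the lists, 30 dimensions, resolution 0.8. Of a class, the marker that led each cluster names it. Scrublet in scanpy 1.11.5 called 142 control cells (2.08%) and 37 Flcn iΔEC cells (0.830%) doublets; all cells were kept and an alternative leaves these out. Counts were summed per type and library and given as CPM. Log2 ratios add 1 count to each sum; ratios with intervals add none. Non-endothelial types need 20 cells in each library to be compared. The same minimum was planned for endothelial types, but their clusters are given at any size. A cluster led by Cd3d and Trac is under it in both libraries. The Lyve1, Madcam1 and capillary clusters and those led by Ly6d and Mzb1 and by Hbb-bs and H19 are under it in 1 library. The order of levels takes types of 20 cells in that library and all LEC-like clusters. Intervals come from scipy 1.17.1, and shares at 2000 UMIs are the share expected when each cell's UMIs are drawn without replacement. The ratio, interval and thinning code was tested on simulated data. Named genes are all 9, Flcn and Tfe3, Xist and the Y-linked genes, and of each list the genes past 2-fold (or, where over 4, the 2 highest and 2 lowest) with its most abundant one; the genes most like each; and the 2 highest and 2 lowest ratios of all. Prox1, and list genes named in single classes, were chosen after their values were seen. Positions are from GENCODE on GRCm38, where 98.8% of the gene identifiers matched. Depth was 64639756 UMIs in control and 60805779 in Flcn iΔEC. Alternatives changed the Cdh5 minimum, cell filters, doublets, scaling, weighting, clustering, count minimum and fold.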

Additional observations from a re-analysis of the deposited data

Results flagged for a closer look

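Tfam had a log2 ratio of Flcn iΔEC over control of −0.17 in endothelial cells and of 0.33 in non-endothelial cells, with counting intervals on opposite sides of no difference. The endothelial minus the non-endothelial value was −0.51. Without doublets and cells with Ptprc the endothelial value was −0.05, and its interval then held no difference. Without the cluster led by Fabp1 and Lypd8, a setting chosen after seeing the data, the non-endothelial value was 0.18. With 1 library per genotype the difference was not tested.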

How the results depend on the processing

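The log2 ratio of Ppargc1a in endothelial cells, 4.09, stayed above 1 in the planned settings that sum or average over cells. It moved outside its counting interval to 3.52 without doublets and cells with Ptprc and to 3.62 as the mean over cells of CPM. The planned mean with equal weights for the 6 named types was 2.12, and 2.66 without the capillary class, which has under 20 cells in 1 library; 3 of these types had 0 control counts, so both means depend on the 1 count added and support nothing. In settings chosen after seeing the data it was 3.52 without LEC-like cells, 1.39 without LEC-like and proliferating cells, and 0.46 without these and the cluster led by Ly6d and Mzb1, and the 2.66 above is a setting of this kind; the causes were not tested. It stayed between 3.97 and 4.10 in 4 other planned settings and was 4.29 without the Cldn11 cluster, also chosen after seeing the data. The count of 1 gene past 2-fold was the same in 10 settings, not counting equal weights. Of these, 1 counted at 1.5-fold and 1, without LEC-like cells, was chosen after seeing the data. The genes were not counted in the setting where the log2 ratio of Ppargc1a was 0.46. Of the other values 240 stayed inside their counting interval and 10 moved: Esrra in endothelial cells, Tfb2m in non-endothelial cells, Ppargc1b, Esrra and Tfam in non-endothelial cells without the Fabp1 cluster, chosen after seeing the data, Ppargc1a and Gabpa in AEC-like cells and 3 shares of cells at other thinning. Without integration the VEC-like class held 63 control cells and 1 Flcn iΔEC cell, under the minimum of 20, while an unnamed cluster held 1 and 130, so VEC-like values are missing there. No paired analysis was possible because there is 1 library per genotype. Levels under the upper counting limit of a type with 0 counts could not be seen, and the spread between mice is not covered.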
